A study of Mus musculus with 33 samples.

Results

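LSD1 is a demethylase that takes methyl groups off mono- and dimethylated lysine 4 of histone H3 (H3K4). The regions described here are the places where LSD1 was listed in myotubes but not in myoblasts, and where neither ING1 nor Sin3A was listed in myotubes. They were picked from the authors' peak lists as the autosomal LSD1 myotube peaks that overlapped, by even 1 bp, no LSD1 myoblast peak and no ING1 or Sin3A myotube peak. There were 11939 of them among 16361 autosomal LSD1 myotube peaks (73.0%), and they are called stand-alone LSD1 sites below. The name says only that none of these 3 lists had a peak there. It does not mean that other factors were absent or that the sites lay apart from each other. Menin, MLL3, Wdr5 and MLL1 were mapped in myoblasts only, so their presence at these sites in myotubes is not known. Another 2532 peaks (15.5%) were new in myotubes but met ING1 or Sin3A, and 1890 (11.6%) were kept from myoblasts. Overlap with those 3 lists is therefore the choice itself and not a finding. Of the kept sites, 90.3% met ING1 and 94.8% met Sin3A in myotubes. Both other sets thus consist largely of ING1 or Sin3A sites, and contrasts with them are not independent of the choice. Each stand-alone site was further sorted by whether it met Menin or MLL3 peaks of myoblasts.

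Methylation of H3K4 is written by the MLL enzymes, read by proteins such as ING1 and removed by LSD1. Menin is a subunit of MLL1 complexes, which act mostly at promoters and at homeotic genes. Wdr5 is a core subunit shared by all MLL complexes. MLL3 and its relative MLL4 place monomethylation, a mark typical of enhancers. Sin3A is the scaffold of a histone deacetylase complex in which ING1 binds trimethylated H3K4. LSD1 itself mostly works within corepressor complexes and has also been tied to muscle differentiation in cultured myoblasts.

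The cells were C2C12, a mouse myoblast line. Myotubes were taken after 96 h (4 days) in 2% horse serum, against growing myoblasts in 10% fetal bovine serum. ING1 was Flag-tagged ING1 expressed ectopically from a retroviral vector in a puromycin-selected line, so its ChIP reads the tagged protein and not the native one; all other factors were precipitated with antibodies to the proteins themselves from C2C12 cells. Myotube groups were LSD1 (1 list), ING1 (3 replicates) and Sin3A (2 replicates); myoblast groups were LSD1 (1 list), MLL3 (1 list), Menin, MLL1 and ING1 (2 replicates each) and Wdr5 (3 replicates). For Sin3A the design text of the series names myoblasts and the sample labels name myotubes, which were followed. MLL1 samples have Menin as their source label, and their title and antibody (MLL and MLL1) were followed.

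The files give only the boundaries of peaks, so neither the height of a peak nor the sequencing depth is known. On the autosomes LSD1 had 16361 peaks in myotubes, against 4419 in myoblasts. A site can be absent from the shorter list for want of depth as well as of binding, and with 1 list per state these cannot be told apart. Absence from the ING1 and Sin3A myotube lists, with 9570 and 13845 peaks, has the same limit. Their replicate lists were very unequal, with 2151, 2485 and 122 peaks for ING1 and 9270 and 426 for Sin3A. The myoblast lists held 208538 peaks for MLL3, 68934 for Menin, 58123 for Wdr5, 8795 for MLL1 and 8114 for ING1, and a longer list meets more sites. No comparison below has a test, because LSD1 has no replicate list. Shares are given with exact binomial 95% intervals, which cover counting error only, and, for factors with replicates, with the value in each replicate list. The intervals treat sites as independent. Yet 75.5% of stand-alone sites lay within 10 kb of another, and neighbours often met the same factor, so the intervals are likely too narrow. Unless a replicate is named, the list is the merged one of that factor. Positions are in build mm9 and are named by coordinates, since no gene annotation of that build was used here.

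The commonest state of a stand-alone LSD1 site was to meet none of the 5 factors mapped in myoblasts besides LSD1. Of the 11939 sites, 6031 (50.5%) met no peak of Menin, MLL3, Wdr5, MLL1 or ING1, against 37.7% of all LSD1 myotube peaks. Exactly 1 of these 5 lay at 4318 stand-alone sites (36.2%), against 28.4% of all LSD1 myotube peaks. At least 3 of them lay at 2.09% of stand-alone sites, against 61.8% of new sites at ING1 or Sin3A, 83.8% of kept sites and 20.8% of all LSD1 myotube peaks. Only 4 of the 11939 stand-alone sites met all 5, against 55 of 2532 new sites at ING1 or Sin3A and 125 of 1890 kept sites. Among all LSD1 myotube peaks 184 of 16361 (1.12%) did. ING1 of myoblasts is among these 5, and its share is not independent of the choice. The commonest combinations after none were MLL3 alone at 2261 sites (18.9%), Menin alone at 1696 (14.2%), Menin with MLL3 at 830 (6.95%) and Wdr5 alone at 333 (2.79%). Shares of these combinations over all LSD1 myotube peaks were not computed, so they are a description only.

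Sorted by Menin and MLL3, the sites fell into 4 classes. Neither factor was listed at 6394 sites (53.6%, 95% interval 52.7 to 54.5), against 41.2% of all LSD1 myotube peaks. MLL3 without Menin lay at 2420 sites (20.3%, 19.6 to 21.0), Menin without MLL3 at 2126 (17.8%, 17.1 to 18.5) and both at 999 (8.37%, 7.88 to 8.88). The classes with a factor were not counted over all LSD1 myotube peaks. Counted with or without the other factor, Menin met 26.2% of stand-alone sites and 43.4% of all LSD1 myotube peaks. For MLL3 these shares were 28.6% and 25.6%. Menin was slightly more frequent where MLL3 was present than where it was not: at 29.2% (27.7 to 30.8) of the 3419 stand-alone sites with MLL3 and 25% (24.0 to 25.9) of the 8520 without. This small difference was not tested. Among new sites at ING1 or Sin3A the order was the other way, with Menin at 80.4% (75.9 to 84.3) of sites with MLL3 and 87.0% (85.5 to 88.4) of those without. Over all LSD1 myotube peaks it was also the other way, with Menin at 40.0% and 44.5%. Kept sites had nearly equal shares, 94.4% and 95.1%.

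MLL3, the monomethyltransferase, was the factor that stand-alone sites met more often than other LSD1 sites did. MLL3 peaks overlapped 28.6% of stand-alone sites (27.8 to 29.5), against 14.5% of new sites at ING1 or Sin3A (13.1 to 15.9), 21.6% of kept sites and 25.6% of all LSD1 myotube peaks. The share was higher at stand-alone than at new ING1 or Sin3A sites on 19 of 19 autosomes, and higher than at kept sites on 17 of 19. Peaks were also sorted by width into 10 classes with about equal numbers of LSD1 myotube peaks. The MLL3 share was higher at stand-alone sites in 9 of 10 against the new ING1 or Sin3A sites, and in 8 of 10 against the kept sites. In the widest class the order was reversed, with 21.8% against 25.9% and 33.0%. Widths were not matched within that class, which reached 13610 bp at stand-alone sites, against 19799 and 9136 bp in those sets. With every myoblast list shortened to its 8114 widest peaks, MLL3 lay at 13.6% of stand-alone sites, against 4.70% and 6.98% in those 2 sets. MLL3 has a single list, so its own replicate spread is not known.

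Where MLL3 met a stand-alone site it usually enclosed it. The MLL3 peak covered the whole site in 2072 of 3419 cases (60.6%) and its centre in 87.0%, and under 10% of the site was covered in 71 cases. The 2981 MLL3 peaks concerned had a median width of 1408 bp, against 635 bp for the whole MLL3 list, and those at sites with Menin as well had a median of 1797 bp. A wide peak is more easily met than a narrow one, so this difference is in part built into the overlap.

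Menin, the MLL1 partner, was much less frequent at stand-alone sites than at other LSD1 sites, most of which met ING1 or Sin3A in myotubes. Menin peaks of the pooled list overlapped 26.2% of stand-alone sites (25.4 to 27), against 86.0% of new sites at ING1 or Sin3A, 95% of kept sites and 43.4% of all LSD1 myotube peaks. In the single replicate lists the shares were 9.28% and 4.97% at stand-alone sites, against 68.6% and 66.4% at the new sites with ING1 or Sin3A and 83.4% and 79.5% at kept sites. The 2 Menin lists differed far less than the sets did: their mean was 7.12% ± 3.05 at stand-alone sites and 67.5% ± 1.51 at the new sites with ING1 or Sin3A (SD, n = 2 each). No autosome and none of the 10 width classes had the opposite order.

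The Menin peaks at stand-alone sites were also less well backed by replicates. Of the 3091 pooled Menin peaks that touched a stand-alone site, 58.1% met no peak of either replicate list and 19.2% met both, against 10.9% and 70.5% of the Menin peaks at new ING1 or Sin3A sites. In the whole Menin list those figures were 71.0% and 12.5%. The median width of these Menin peaks was 866 bp at stand-alone sites, 2299.5 bp at the new sites with ING1 or Sin3A and 2599 bp at kept sites. Menin enclosed the whole LSD1 site in 1000 of 3125 cases (32.0%) and covered its centre in 72.9%.

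Wdr5, the core subunit of MLL complexes, was rarer still. Its pooled list met 8.29% of stand-alone sites (7.80 to 8.80), against 78.2% of new sites at ING1 or Sin3A, 92.0% of kept sites and 28.8% of all LSD1 myotube peaks. The 3 replicate lists gave 0.921%, 0.285% and 0.310% at stand-alone sites, against 43.8%, 31.5% and 32.1% at the new sites with ING1 or Sin3A. Their means were 0.505% ± 0.360 and 35.8% ± 6.97 (SD, n = 3 each), so the sets lay apart by far more than the replicate lists did. Of the 968 pooled Wdr5 peaks at stand-alone sites 81.5% met no replicate list, close to the 83.1% of the whole Wdr5 list and above the 24.6% at new ING1 or Sin3A sites. Wdr5 was found at 17.1% of sites with Menin only, 15.2% of those with Menin and MLL3, 5.74% of those with MLL3 only and 5.24% of those with neither.

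MLL1, the promoter-bound H3K4 methyltransferase, met 175 stand-alone sites (1.47%, 1.26 to 1.70), against 32.5% of new sites at ING1 or Sin3A, 42.6% of kept sites and 11.0% of all LSD1 myotube peaks. Its replicate lists met 0.754% and 0.0754% of stand-alone sites, against 19.4% and 3.95% of the new sites with ING1 or Sin3A. Of the 175 sites 101 were in the class with Menin only, which held 17.8% of all stand-alone sites. Another 27 had Menin and MLL3, 28 had neither and 19 had MLL3 only.

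ING1 of myoblasts, the reader of trimethylated H3K4, lay at 72 stand-alone sites (0.603%, 0.472 to 0.759), against 58.5% of new sites at ING1 or Sin3A, 81.4% of kept sites and 18.9% of all LSD1 myotube peaks. Its replicate lists met 0.0251% and 0.235% of stand-alone sites, against 3.71% and 43.3% of the new sites with ING1 or Sin3A. The choice removed sites with ING1 in myotubes, so this low share is not independent of it. At these 72 sites ING1 was listed in myoblasts, and in myotubes LSD1 was listed and ING1 was not. Of the 74 pooled ING1 peaks there, 55.4% met no replicate list and 5.41% met both, against 41.3% and 4.17% in the whole ING1 myoblast list. Among the 72 sites 55 were in the class with Menin only, which held 17.8% of all stand-alone sites. Another 11 had Menin and MLL3, 4 had MLL3 only and 2 had neither.

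**Figure D1:**
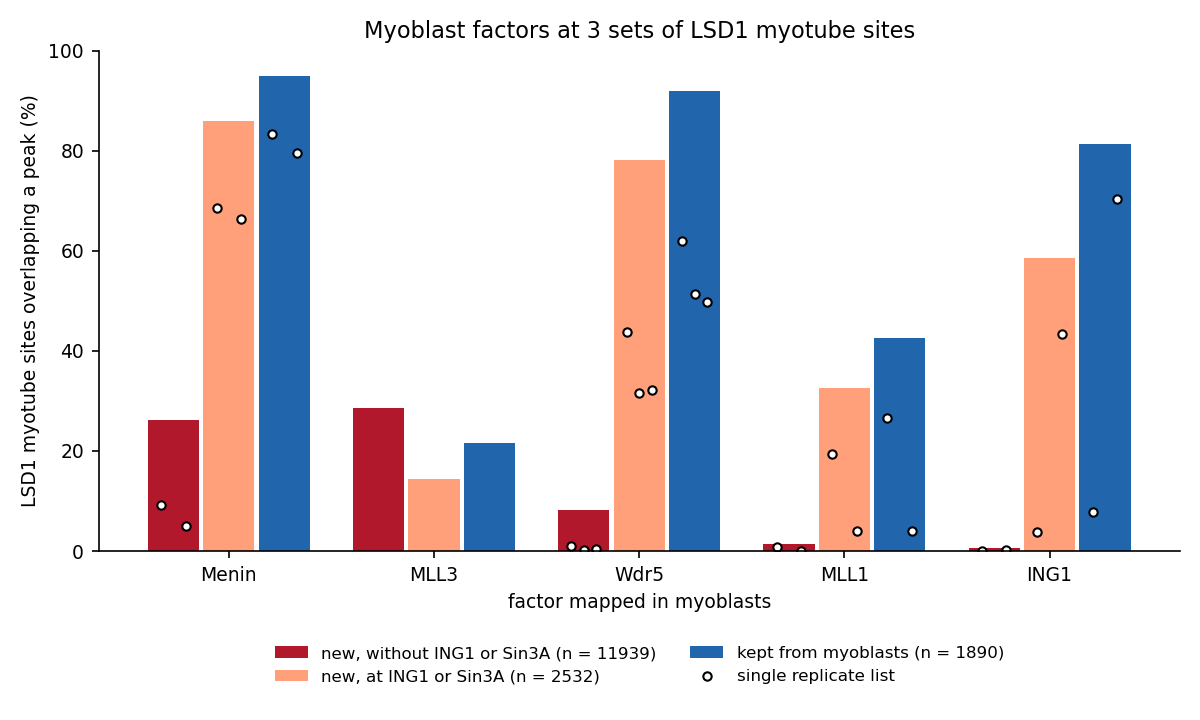
Percentage of LSD1 myotube sites (vertical axis) that overlap a myoblast peak of each of 5 factors (horizontal axis), for stand-alone sites, new sites at ING1 or Sin3A and kept sites. Bars are pooled or single lists and open circles single replicate lists; MLL3 is the factor whose bar is highest for stand-alone sites (28.6%), while Menin (26.2%) and Wdr5 (8.29%) are far below the other sets in every replicate list.

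The surroundings of the sites gave a related picture. MLL3 peaks covered 24.9% of stand-alone site centres, 19% of the flanks at 5 kb and 13.8% of those at 50 kb. At new sites with ING1 or Sin3A MLL3 coverage was lower at the centre than around it, 9.76% against 13.8% at 5 kb and 13.3% at 50 kb. Menin covered 19.1% of stand-alone centres, 17.5% of the flanks at 5 kb and 8.84% of those at 50 kb, a low and broad profile. At new sites with ING1 or Sin3A Menin covered 82.2% of centres and 14.7% at 5 kb. Wdr5 covered 4.93% of stand-alone centres, below the 6.55% at 5 kb from them and near the 4.29% at 50 kb. For the new sites with ING1 or Sin3A it covered 72.4% of centres, 4.90% at 5 kb and 3.59% at 50 kb.

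Coverage in the flanks was also taken by class. The classes were made from the same MLL3 and Menin lists, so coverage near the centre is largely fixed by the split, and these values are a description. At sites with neither factor MLL3 covered 6.62% of positions 1 kb from the centre, 12.1% at 5 kb and 11.2% at 50 kb. At sites with MLL3 only the coverage was 50.9% at 1 kb, 34.3% at 5 kb and 19.5% at 50 kb, and at sites with both it was 60.8%, 36.7% and 18.8%. Menin covered 40.1% of positions 2 kb from sites with both factors and 38.3% from sites with Menin only, against 11.2% from sites with MLL3 only and 8.59% from sites with neither.

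**Figure D2:**
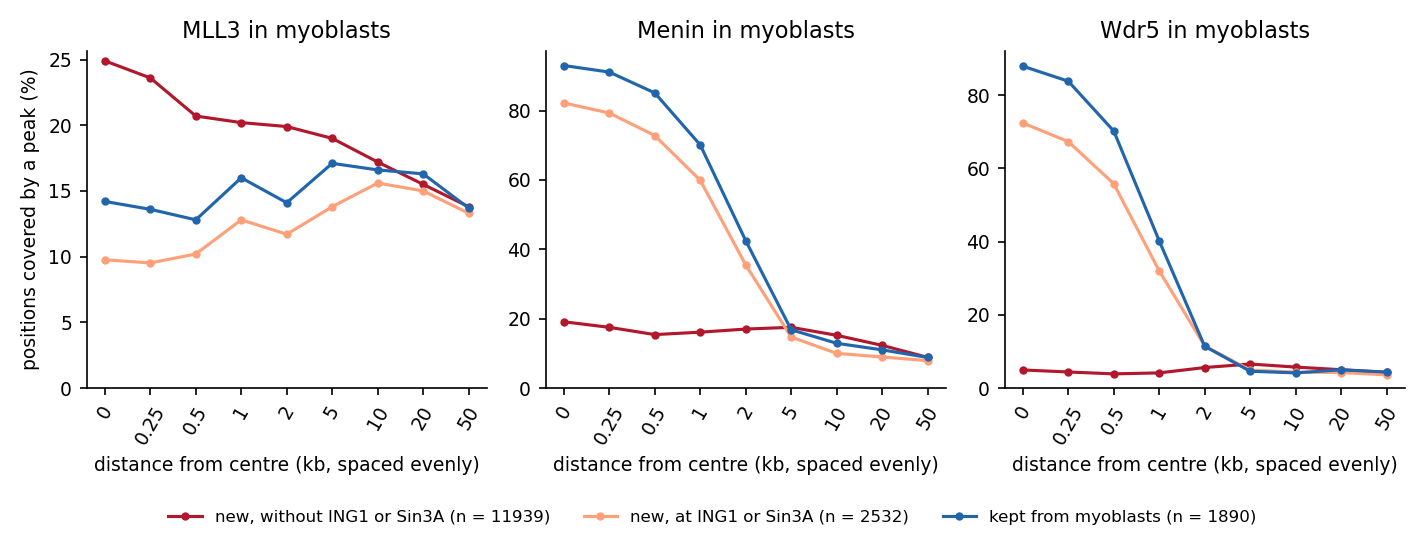
Percentage of positions covered by MLL3, Menin and Wdr5 peaks of myoblasts (vertical axes, scales differ) at the centre of LSD1 myotube sites and at 0.25 to 50 kb on either side (horizontal axis, evenly spaced steps), for stand-alone sites, new sites at ING1 or Sin3A and kept sites. MLL3 is highest at the centre of stand-alone sites (24.9%) and low at the centre of the other new sites (9.76%), and Menin and Wdr5 show peaks at the other 2 sets.

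Distances to the 3 lists that made the choice are a description, since the choice allowed no overlap with them. The nearest ING1 or Sin3A myotube peak was a median of 12239 bp away (quartiles 4736 and 30138 bp), and it was within 2 kb for 1333 sites (11.2%), within 10 kb for 44.1% of sites and beyond 50 kb for 1749 (14.6%). The nearest LSD1 peak of myoblasts was a median of 54904 bp away. Sin3A peaks covered 3.42% of positions 5 kb from the centre of a stand-alone site and 1.60% at 50 kb, and myoblast LSD1 peaks covered 0.674% and 0.230%. The class with Menin and MLL3 was nearest, with a median of 5058 bp to ING1 or Sin3A and 12645 bp to myoblast LSD1. Sites with Menin only followed at 5989 and 25458.5 bp, then MLL3 only at 13033.5 and 41295.5 bp, and sites with neither were farthest at 16212.5 and 91564.5 bp.

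Menin at stand-alone sites went with nearness to ING1 or Sin3A, and MLL3 did so less. Menin met 58.4% of the 1331 sites under 2 kb from an ING1 or Sin3A peak, 31.7% of 3931 sites at 2 to 10 kb, 19.2% of 4928 at 10 to 50 kb and 8.98% of 1749 beyond that. Over the same steps MLL3 met 30.8%, 32.0%, 28.1% and 21.0%, and Wdr5 met 19.2%, 7.73%, 6.51% and 6.23%. The share with neither Menin nor MLL3 was 29.6%, 47.5%, 58.4% and 71.8%.

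The choice has its limit at 1 bp of overlap with ING1 or Sin3A. Just inside it, the 57 stand-alone sites with a gap of 100 bp or less to ING1 or Sin3A had a median width of 545 bp and met Menin in 61.4%, MLL3 in 33.3% and Wdr5 in 40.4% of cases. Just outside it, the 66 new sites left out for an overlap of 100 bp or less had a median width of 575 bp and met them in 62.1%, 28.8% and 39.4%.

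**Figure D3:**
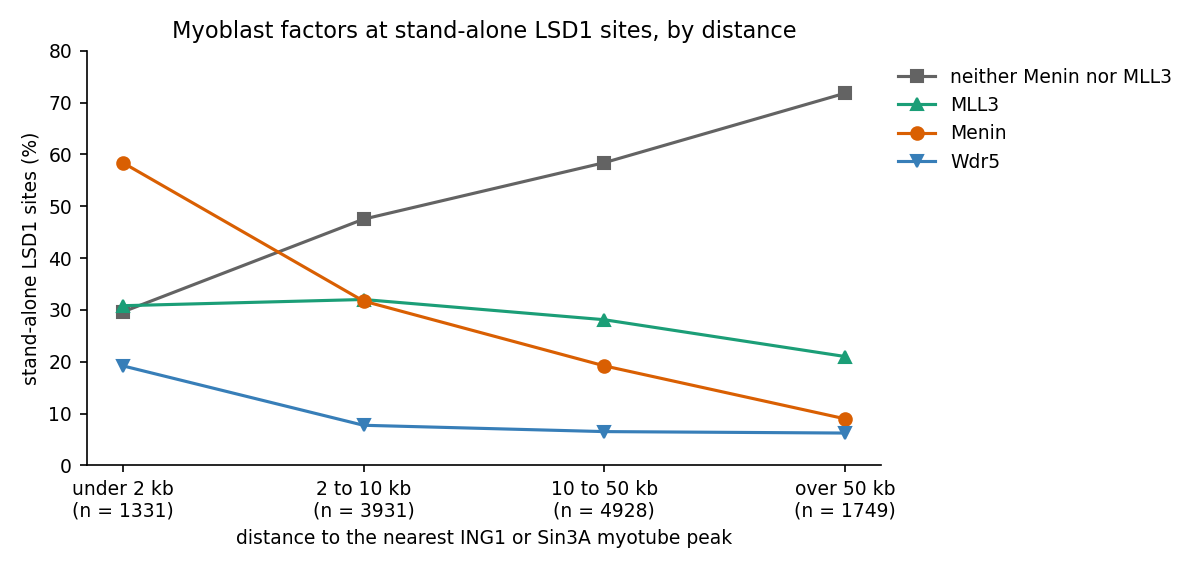
Percentage of stand-alone LSD1 sites with Menin, MLL3, Wdr5 or neither Menin nor MLL3 in myoblasts (vertical axis), in 4 bins of distance to the nearest ING1 or Sin3A myotube peak (horizontal axis, with the number of sites). The Menin line stands at 58.4% in the nearest bin and 8.98% in the farthest, MLL3 stays between 21.0% and 32.0%, and the share with neither is 71.8% in the farthest bin.

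Stand-alone sites were about as wide as other new LSD1 sites, and their classes differed. Their median width was 614 bp (quartiles 476 and 866 bp), against 624 bp at new sites with ING1 or Sin3A and 719 bp at kept sites, and together they covered 9.41 Mb. A total of 432 (3.62%) were 2 kb or wider, against 3.04% and 3.70% in those sets, and 45 reached 5 kb. Sites with Menin only had a median of 673 bp and held 25 of those 45 sites, with 7.34% of the class at 2 kb or more. Sites with both factors had a median of 654 bp (4.50% at 2 kb or more), sites with neither 608 bp (3.10%) and sites with MLL3 only 582 bp (1.36%). Wide LSD1 sites are more easily met by any peak, yet the share with MLL3 was lowest in the widest class of sites, at 21.8%, while that with Menin was highest there, at 40.3%.

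**Figure D4:**
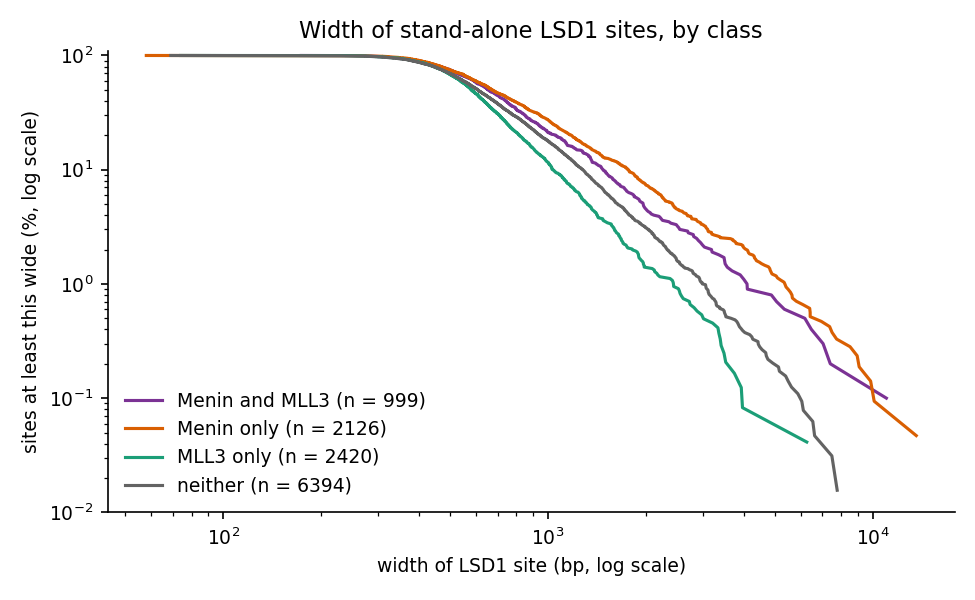
Percentage of stand-alone LSD1 sites (vertical axis, log scale) that are at least as wide as the value on the horizontal axis (bp, log scale), for the 4 classes by Menin and MLL3. At 2 kb the lines stand at 7.34% for Menin only, 4.50% for Menin and MLL3, 3.10% for neither and 1.36% for MLL3 only.

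Stand-alone sites came in long runs. The median gap to the next stand-alone site was 1683 bp, against gaps of 104967 bp among new sites with ING1 or Sin3A and 140943 bp among kept sites, which are fewer. When neighbours up to 10 kb apart were joined, the 11939 sites gave 4708 runs, of which 2929 were lone sites. Runs of 5 or more sites numbered 580 and held 5934 sites (49.7%), against 0.948% of new sites with ING1 or Sin3A and 0.265% of kept sites. A set with more peaks forms more runs by its number alone. For scale, the Sin3A myotube list, with 13845 peaks, had 3.03% of them in such runs, and the ING1 myotube list, with 9570, had 3.21%. Among the 2532 widest stand-alone sites, as many as there were new sites with ING1 or Sin3A, the share was 34.8%; this choice by width favours sites in runs, since sites in long runs were wider. The far longer Menin and MLL3 lists had 58.1% and 67.5%, and the Wdr5 list 11.0%.

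The runs of 5 or more had a median length of 20615.5 bp, of which the stand-alone sites covered a median of 31.0%. There were 52 runs of 50 kb or more and 12 of 100 kb or more. An ING1 or Sin3A myotube peak lay within 10 kb beyond 1 end of 385 of the 580 runs (66.4%), beyond both ends of 69 (11.9%) and beyond neither of 126 (21.7%). For lone sites the shares were 33.2%, 5.12% and 61.7%. Within the span of the run such a peak was listed in 108 of the 580 (18.6%), and a myoblast LSD1 peak in 2.59% of them.

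The makeup of the runs changed with their size. Sites in the 45 runs of 20 or more had a median width of 830 bp and 12.4% of them were 2 kb or wider, against 554 bp and 0.205% for lone sites. MLL3 met 32.5% of lone sites, 33.8% of sites in runs of 2 to 4, 30.0% in runs of 5 to 9, 27.4% in runs of 10 to 19 and 10.6% in the longest runs. From lone sites to the longest runs, the share with neither Menin nor MLL3 was 53.1%, 48.0%, 48.6%, 56.6% and 69.8%. Over the same steps Menin met 21.6%, 29.1%, 31.2%, 23.9% and 23.4%, most often in runs of 5 to 9. Of the 580 runs, 191 had no site with MLL3, 146 none with Menin and 54 no site with either.

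Neighbouring stand-alone sites often shared their MLL3 or Menin state. Of 7231 pairs of neighbouring sites up to 10 kb apart, the second site had MLL3 in 62.5% of pairs whose first site had it and in 13.2% of pairs whose first site did not. For Menin the figures were 53.6% and 16.9%, and for Wdr5 18.4% and 6.90%. A single wide peak can meet neighbouring sites together, which adds to these figures. The pairs were pooled over all runs, so stretches within a run cannot be told from differences between whole runs. In 147 of the 580 runs at least 50% of the sites met MLL3, in 137 at least 50% met Menin, and in 43 both held.

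**Figure D5:**
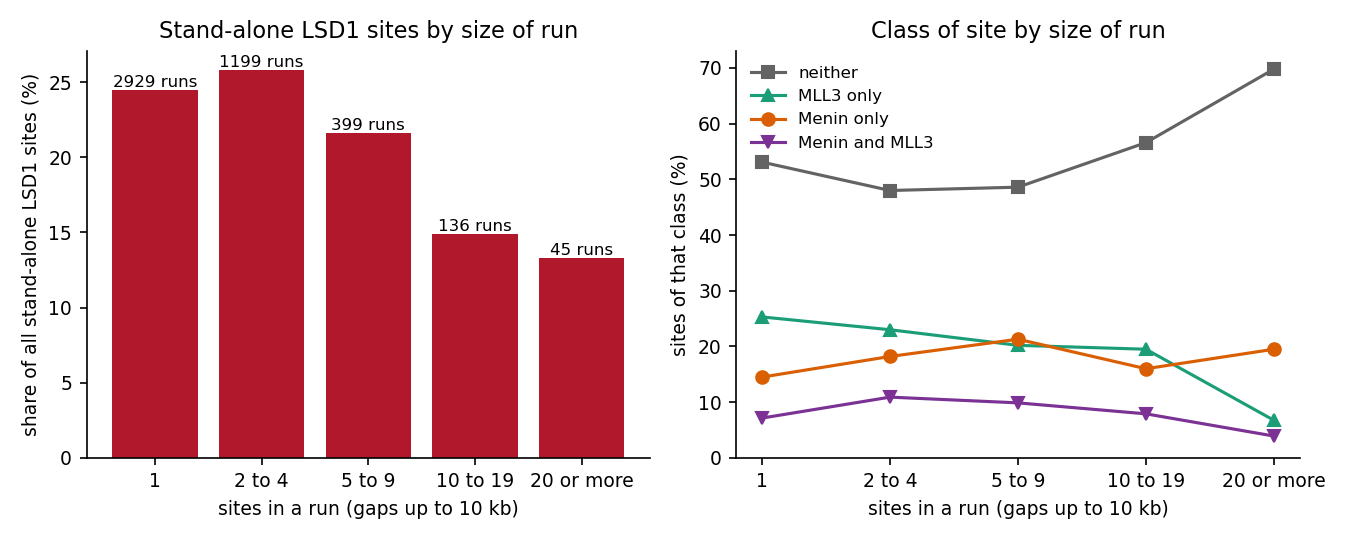
Left, share of all stand-alone LSD1 sites (vertical axis, %) by the number of sites in their run (horizontal axis, gaps of up to 10 kb joined), with the number of runs above each bar. Right, percentage of sites of each Menin and MLL3 class in the same groups; in runs of 20 or more 69.8% of sites have neither factor and 6.74% have MLL3 only.

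The 3 runs with most sites differed in their makeup. The run with most sites lay on chromosome 16, from 92607122 to 92819454, with 81 stand-alone sites over 212333 bp. LSD1 peaks of all kinds covered 59.5% of it, and 31 of the sites met Menin, 3 met MLL3 and 47 met neither. It also contained 3 ING1 and 5 Sin3A myotube peaks and 3 LSD1 peaks of myoblasts. The second, on chromosome 3 from 55082277 to 55270696, held 79 sites, of which 76 met neither factor; Menin covered 2.20% and MLL3 0.133% of its 188420 bp, and it held 4 Sin3A myotube peaks, no ING1 peak in either state and no myoblast LSD1 peak. The last of the 3, at 27742713 to 27951666 of chromosome 15, had LSD1 over 76.8% of its length, with 68 sites, 34 with Menin and 1 with MLL3, and it held 4 Sin3A peaks and 1 ING1 peak of myotubes and no LSD1 peak of myoblasts. The runs on chromosomes 16 and 15 were thus rich in Menin and the run on chromosome 3 nearly bare of it, while MLL3 was scarce in all of them.

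The widest stand-alone site belonged to that last run: 13610 bp on chromosome 15, from 27906686 to 27920295, with 6 Menin peaks over 35.2% of it, Wdr5 over 15.7%, and no MLL3, MLL1 or ING1 of myoblasts. Another of the widest sites with Menin only lay in the same run, from 27834364 to 27843444, with Menin over 22.0%. On chromosome 15 from 25578425 to 25588273, in a run of 32 sites, a site of 9849 bp had Menin over 59.2%, Wdr5 over 20.4% and MLL1 over 15.3% of it. In the rest of this group Menin covered 12.6% of a site on chromosome 2 (156565064 to 156575163) and 44.4% of a site on chromosome 17 (79741863 to 79750815). Menin coverage among these 5 sites thus lay between 12.6% and 59.2%.

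Among sites with both factors, the widest was on chromosome 3 from 121139151 to 121150162 (11012 bp), where Menin covered 3.19% and MLL3 29.3%. In contrast, Menin and MLL3 both lay over most of 2 sites on chromosome 15. From 96520167 to 96526636 Menin covered 91.4% and MLL3 95.9%, with a Sin3A peak 202 bp away, and from 77637208 to 77643384 Menin covered 97.2% and MLL3 84.4%. A site on chromosome 5 (144012062 to 144019460) had Menin over 12.7% and MLL3 over 10.8%. A site on chromosome 15 (72991812 to 72998842) had Menin over 8.26% and MLL3 over 62.0%.

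The widest sites with MLL3 only were smaller. The 6263 bp site on chromosome 16, from 92725493 to 92731755, lay in the run of 81 sites and had MLL3 over 14.2%. MLL3 covered 99.8% of a site on chromosome 10, from 79321837 to 79325773, and all of one on chromosome 2, from 168012479 to 168016227; these met no other myoblast factor. On chromosome 15, from 23507883 to 23511408, MLL3 covered 54.9% of a site in a run of 12. The nearest ING1 myotube peak to that site was 1830546 bp away and the nearest Sin3A myotube peak 81347 bp away. The last, on chromosome 16 from 3231619 to 3235589, was a lone site with MLL3 over 11.7%.

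The widest sites with neither factor had none of the 5 myoblast factors. The widest had 7771 bp on chromosome 15 (25604028 to 25611798), and the next had 7483 bp on chromosome 9 (49547137 to 49554619). The other 3 were on chromosome 2, with 6621 bp (76584185 to 76590805), 6537 bp (76547271 to 76553807) and 6113 bp (173073018 to 173079130). All were in runs, of 32, 47, 34, 34 and 13 sites in that order. The first shared its run with the 9849 bp Menin site described above, and the pair at 76547271 and 76584185 lay in a single run. The nearest ING1 myotube peaks were 19362 to 70421 bp away, and the nearest Sin3A myotube peaks were closer, at 5176 to 25598 bp.

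Wdr5 covered most length at a site on chromosome 10 from 128349372 to 128351614, which it enclosed wholly (100%) and where Menin covered 91.6%; Sin3A was listed 208 bp away. The next, on chromosome 15 from 27865357 to 27869497 in the run of 68 sites, had Wdr5 over 52.1%, Menin over 100% and MLL1 over 13.1%. The site of 13610 bp on the same chromosome came after these.

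The sites were spread unevenly over the autosomes. Chromosome 8 held 1137 (9.52%), against 6.69% of the other LSD1 myotube peaks, a ratio of 1.42, and chromosome 15 held 1069 (8.95%, against 6.83%, ratio 1.31). The lowest ratios were 0.717 on chromosome 14, with 267 sites, and 0.768 on chromosome 7, with 365. Per Mb between the first and last MLL3 peak, chromosome 15 had 10.7 stand-alone sites, chromosome 11 had 9.34 and chromosome 8 had 8.85, against a median of 4.07. Chromosome 15 had the highest shares with Menin (37.2%) and MLL3 (43.5%), and chromosome 7 the lowest (14.2% and 9.32%). The whole lists were uneven in the same direction. Chromosome 15 held 7.43% of all Menin and 7.57% of all MLL3 peaks, and chromosome 7 held 3.50% and 2.83%. The medians over the autosomes were 4.85% and 5.34%. The share with neither factor was 34.1% on chromosome 15 and 78.6% on chromosome 7.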

How the data were processed

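ChIP-seq peak lists of C2C12 cells were used. The deposited values are left and right peak boundaries in base pairs, per the file headers, with no score. The build was mm9 and the tools bedtools 2.17.0, Bowtie 0.12.9 and SAMtools 0.1.19, per the submitters' processing notes; not given in the sources used here are the peak caller, its threshold and how replicates were pooled. The labels list 33 samples, of which 17 ChIP samples were used; 10 inputs and 6 RNA samples were not analysed here.

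Starts were taken as zero-based and are printed 1-based. Peaks on chromosomes 1 to 19 were compared in Python 3.11.15 (numpy 2.4.6, pandas 2.3.3, scipy 1.17.1); overlap meant at least 1 bp. Overlap functions were tested on simulated peaks against bedtools 2.31.1. Runs joined sites up to 10 kb apart. The named regions are the 5 widest sites of each class, the 3 runs with most sites and the 3 sites of at least 2 kb with most Wdr5. The sites and measures were chosen with earlier results of these data known. The planned naming of genes and the sequence of the sites need mm9 references and were not done. Alternatives were another overlap rule, wider peaks, unions of replicate lists, replicates left out, chromosome X and, added after seeing the data, lists of equal length. Replicates are not stated to be separate cultures.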

Additional observations from a re-analysis of the deposited data

Results flagged for a closer look

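Peaks outside the lists used for the choice also touched the stand-alone sites. In the single replicate lists of ING1 and Sin3A in myotubes, which the choice did not use, 14 of the 11939 sites met a peak (0.117%). Sin3A replicate 1 met 13 sites, ING1 replicates 1 and 2 met 1 each, and ING1 replicate 3 and Sin3A replicate 2 met 0, so 1 site met more than 1 list.

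Chromosome X was left out of the choice. By the same rule 115 of its 143 LSD1 myotube peaks were stand-alone sites, of which 20.9% met Menin (exact 95% interval 13.9 to 29.4), 13.0% met MLL3 (7.49 to 20.6) and 67.8% neither.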

How the results depend on the processing

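The number of sites was 11557 to 12436 under each change of list or overlap rule except the wider 50% of every list, where it was 6029 with a median width of 879 bp. In the order Menin, MLL3, neither, Wdr5, the shares were 22.6%, 25.6%, 58.4% and 6.67% when 50% of the shorter peak had to overlap, 33.2%, 36.2%, 44.2% and 11.8% with peaks within 500 bp counted (MLL1 2.12%), 23.6%, 23.9%, 59.2% and 7.31% with the wider 50% of every list (ING1 0.896%), and 7.50%, 13.6%, 80.5% and 1.77% with lists of equal length, an alternative added after seeing the data. With unions of the replicate lists MLL3 stayed at 28.4%, while Menin was 12.7%, neither 62.6%, Wdr5 2.14%, MLL1 1.25% and ING1 0.852%. In all of these settings MLL3 was more frequent at stand-alone sites than in the 2 other sets, and Menin, Wdr5, MLL1 and ING1 were less frequent. The MLL3 lead over kept sites was small with peaks within 500 bp counted (36.2% against 34.2%). It was also small with the wider 50% of every list (23.9% against 22.6%).

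Leaving out single replicates from the unions gave 12436 to 13739 sites, median widths of 614 to 615 bp, Menin at 6.49% to 19.3%, MLL3 at 26.9% to 28.4%, neither at 58.1% to 66.7%, Wdr5 at 0.997% to 7.37%, MLL1 at 0.201% to 3.01% and ING1 at 0.0563% to 4.51%. The highest shares for Menin, Wdr5, MLL1 and ING1 came without Sin3A replicate 1, which admits sites that meet that list. The lowest came without the longest list of the factor: Menin replicate 1 (6.49%), Wdr5 replicate 1 (0.997%), MLL1 replicate 1 (0.201%) and ING1 myoblast replicate 2 (0.0563%). No paired analysis was possible because LSD1 and MLL3 have 1 list each and the results come from no test between groups of samples. Depth is unknown.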
